A study of Mus musculus with 6 samples.

Results

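The transcripts described here encode the proteins of the cytosolic and the mitochondrial ribosome in group 2 innate lymphoid cells (ILC2s) of the mouse colon. Members were taken by a rule on gene symbols that leaves out names marked as pseudogenes, set with earlier results of these data known. Rpl32l and Rps4l, annotated as pseudogenes, still match it. The rule gave 85 cytosolic genes (52 Rpl-named and 33 Rps-named) and 75 mitochondrial genes (49 Mrpl-named and 26 Mrps-named), 160 of the 23268 genes in the table. DSS libraries came from the colonic ILC2s of C57BL/6 mice, 6 to 8 weeks old, that received 3% dextran sulfate sodium (DSS) for 6 days, and Ctrl libraries from the ILC2s of mice of the same strain and age range that received water for the same 6 days. DSS is a sulfated polysaccharide used to damage the gut lining and bring on colitis in mice. There were 3 libraries in each group, made from full-length cDNA, and the labels give neither the sorting gate nor whether a library is 1 mouse or a pool. The p-values therefore measure the spread between these libraries, which may in part be technical. Levels are the authors' FPKM, fragment numbers divided by transcript length and by library depth, so that genes can be compared per length.

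Cytosolic ribosomes translate the nuclear-encoded proteome, whereas mitochondrial ribosomes translate the few proteins encoded by mitochondrial DNA, all of them parts of the respiratory chain and the ATP synthase. Every protein of both ribosomes that was counted here is encoded in the nucleus. Most mRNAs of cytosolic ribosomal proteins begin with a terminal oligopyrimidine (TOP) tract, a C followed by a run of pyrimidines, through which mTORC1 and the RNA-binding protein LARP1 control their translation as a set. In lymphocytes, activation and growth are known to raise ribosome production, and ILC2s are known for making type 2 cytokines and the tissue repair factor amphiregulin.

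Recovered depth was 9962415 to 18951020 fragments per DSS library and 12670662 to 23119390 fragments per Ctrl library, with DSS replicate 3 the shallowest. ILC2 identity genes, 21 in number, summed to 4524 to 6732 FPKM in DSS libraries and 6058 to 6813 FPKM in Ctrl libraries. Id2 alone, a regulator of all innate lymphoid cells, gave 4960.1, 2819 and 2296 FPKM of these sums in DSS replicates 1, 2 and 3 and 3835, 3679 and 3187 FPKM in Ctrl replicates 1, 2 and 3. Of the 20 ILC2 genes tested, 15 had a negative log2 change (median -0.38) and 9 were lower in every DSS library than in every Ctrl library, Gata3 and Rora among them, against 9.6% of all genes tested, and 0 passed the limma test (lowest adjusted p = 0.0743). Their median ratio to the Ctrl mean was 0.613, 0.770 and 0.793 in DSS replicates 1, 2 and 3. Ptgdr2 was listed at 0 in DSS replicate 1. Marker genes of other cells were also present. Neutrophil genes summed to 98.0, 70.7 and 122 FPKM in DSS replicates 1, 2 and 3, and to 6.52, 3.75 and 12.2 FPKM in Ctrl replicates 1, 2 and 3. Of 14 such genes, 3, 4 and 0 were at 0 in the DSS libraries and 6, 5 and 1 in the Ctrl libraries. B and plasma cell genes summed to 324, 328 and 115 FPKM in DSS replicates 1, 2 and 3, against 121, 123 and 127 FPKM in the Ctrl libraries. Epithelial genes summed to 54.9 to 62.7 FPKM in DSS libraries and 21.3 to 39.7 FPKM in Ctrl libraries, macrophage and monocyte genes to 37.4 to 62.4 and 30.5 to 39.7 FPKM, and T cell genes to 144 to 211 and 112 to 133 FPKM. Lat alone gave 148, 122 and 112 FPKM of the T cell sums in DSS replicates 1, 2 and 3. In Ctrl replicates 1, 2 and 3 it gave 90.1, 109 and 76.95 FPKM. Cd3g came next, and Cd3e had 1.62 to 2.95 FPKM in DSS and 1.66 to 4.43 FPKM in Ctrl libraries. Xbp1 gave most of the B and plasma cell sums in Ctrl libraries (94.2, 96.3 and 86.4 FPKM). Ccr2 was the largest part of the Ctrl macrophage and monocyte sums. Whether Lat, Xbp1 and Ccr2 came from other cells was not tested. Of the cell type lists, 3 neutrophil genes (S100a8, S100a9 and Retnlg) passed the limma test. All 3 were higher in DSS, a direction in which 0.0738% of all genes tested passed. S100a8 (28.0, 24.1 and 32.2 FPKM) and S100a9 (43.3, 36.0 and 42.9 FPKM) gave most of the neutrophil sums in DSS replicates 1, 2 and 3. Of 8 neutrophil genes tested, 4 were higher in every DSS library, against 6.35% of all genes tested. Mmp9 had a negative log2 change, and Cxcr2, Ly6g and Ltf, too low to be tested, overlapped between groups. Olfactory receptor rows, 1096 in number and not known as lymphocyte transcripts, averaged 0.183, 0.135 and 0.964 FPKM in DSS replicates 1, 2 and 3, against 0.0343, 0.0834 and 0.582 FPKM in Ctrl replicates 1, 2 and 3. The part of these differences in the ribosomal protein values was not tested.

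No ribosomal protein gene of either class passed the test between DSS and Ctrl, and the members differed more between the 3 DSS libraries than between the groups. Cytosolic ribosomal protein transcripts held 22.7% of all FPKM in DSS replicate 1, 17.4% in DSS replicate 2 and 13.1% in DSS replicate 3. In Ctrl replicates 1, 2 and 3 they held 15.3%, 15.6% and 15.1%. The DSS libraries thus lay on both sides of a narrow Ctrl range. Their mean share was 17.7% ± 4.80 in DSS and 15.3% ± 0.258 in Ctrl (SD, n = 3 each). Mitochondrial ribosomal protein transcripts held 0.539%, 0.419% and 0.365% of all FPKM in DSS replicates 1, 2 and 3, against 0.419%, 0.423% and 0.408% in Ctrl replicates 1, 2 and 3. Again DSS replicate 1 was above and DSS replicate 3 below all 3 Ctrl libraries. As shares of fragments rather than of FPKM, the cytosolic class held 12.5%, 8.47% and 5.97% in DSS replicates 1, 2 and 3 and 7.38%, 7.62% and 7.34% in Ctrl replicates 1, 2 and 3, with the same DSS order. These are shares of the RNA in a bulk sample, in which fewer cells of a type and less RNA per cell cannot be told apart.

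**Figure D1:**
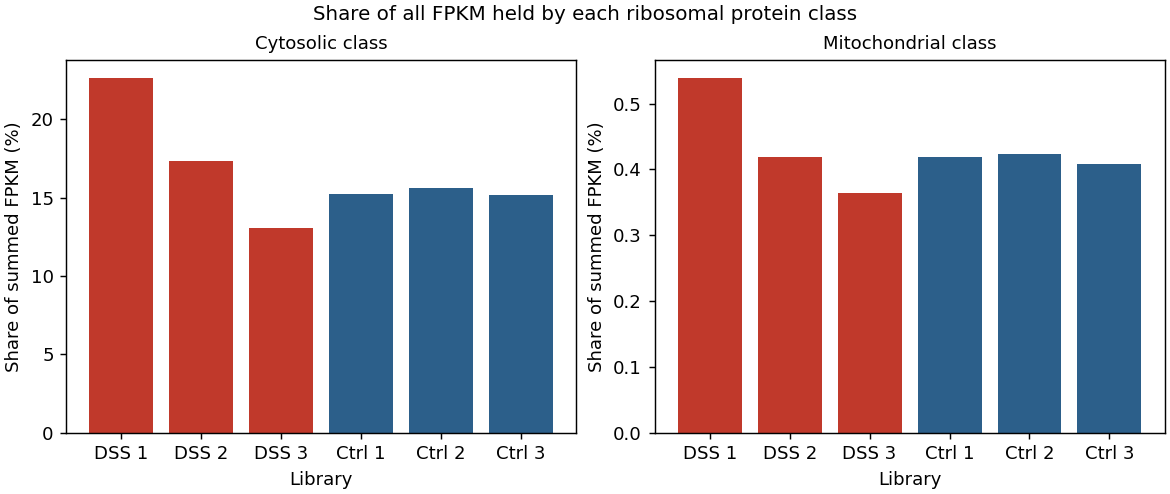
Share of the summed FPKM of each library (vertical axes, percent, starting at 0) held by the 85 cytosolic and the 75 mitochondrial ribosomal protein genes, with 1 bar per library, DSS in red and Ctrl in blue. The cytosolic bars stand at 22.7%, 17.4% and 13.1% in the DSS libraries, on both sides of the 15.1% to 15.6% of the Ctrl libraries.

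The shift within a library was shared by nearly the whole cytosolic class. Relative to the Ctrl mean, the median cytosolic gene stood at 1.74 in DSS replicate 1, 1.14 in DSS replicate 2 and 0.786 in DSS replicate 3. Of the 82 cytosolic genes tested, 76, 68 and 3 were above the Ctrl mean in these libraries. The highest library was DSS replicate 1 for 74 genes (90.2%) and the lowest was DSS replicate 3 for 76 genes (92.7%). Over all genes tested these shares were 18.9% and 12.2%. DSS replicate 1 above and DSS replicate 3 below every Ctrl library was seen for 70 cytosolic genes (85.4%), against 8.25% of all genes tested. Among DSS libraries the median coefficient of variation of a cytosolic gene was 43.6%, and among Ctrl libraries it was 5.21%, compared with 37.8% and 18.4% over all genes tested.

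The mitochondrial class followed the same order more loosely. Its median ratio to the Ctrl mean was 1.48 in DSS replicate 1, 0.986 in DSS replicate 2 and 0.834 in DSS replicate 3, with 58, 36 and 15 of 73 genes above the Ctrl mean. All tested genes had median ratios of 0.825, 0.936 and 1.20, so both ribosomal classes ran opposite to the median gene in DSS replicates 1 and 3. Over 10872 protein-coding genes, a library's log2(FPKM + 1) deviation from the Ctrl libraries fell with mean level in both libraries numbered 3. Spearman's rho was -0.65 in DSS replicate 3 and -0.54 in Ctrl replicate 3, but -0.001 in DSS replicate 1. The part of level and length in the contrast with the median gene was not tested. DSS replicate 1 was the highest library for 52 mitochondrial genes (71.2%) and DSS replicate 3 the lowest for 38 (52.1%). Within each class the 2 ribosomal subunits had similar medians. In DSS replicate 1 the median ratio was 1.79 for Rpl-named and 1.71 for Rps-named genes, and 1.44 for Mrpl-named and 1.53 for Mrps-named genes.

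**Figure D2:**
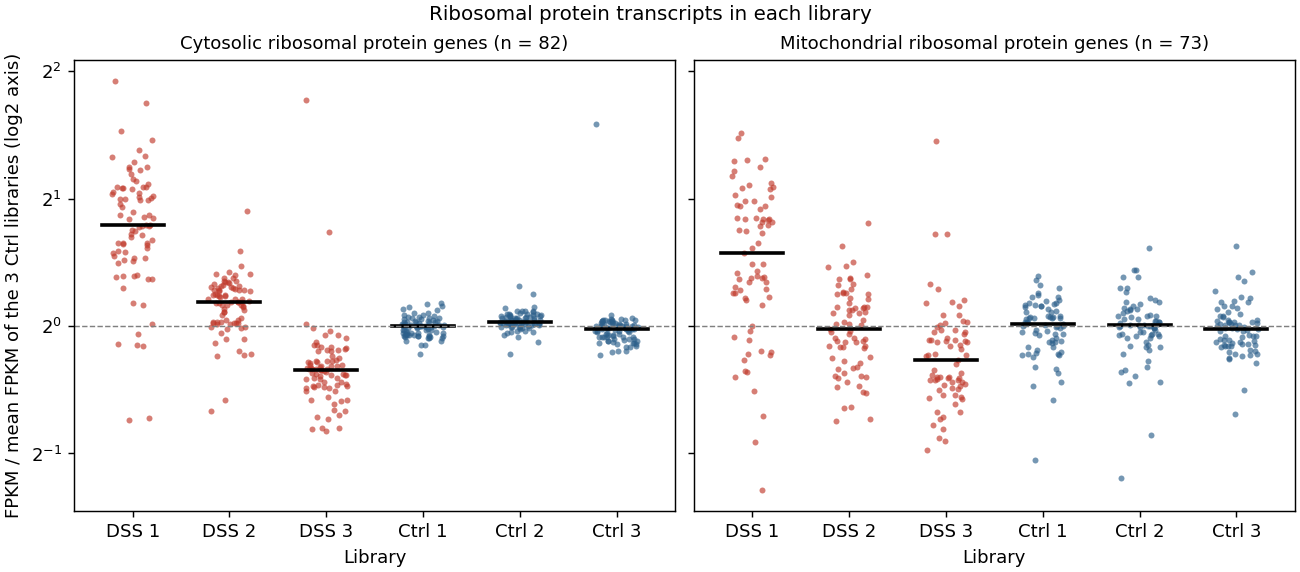
FPKM of each tested member divided by its mean in the 3 Ctrl libraries (log2 axis), by library, for 82 cytosolic genes on the left and 73 mitochondrial genes on the right. Points are genes and bars are medians, and Rpl39l, at 0 in Ctrl replicates 1 and 2, is not drawn there. Cytosolic medians are 1.74, 1.14 and 0.786 in DSS replicates 1, 2 and 3, while the Ctrl points lie close to 1.

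In the limma test on log2(FPKM + 1), 0 of 82 cytosolic and 0 of 73 mitochondrial genes passed an adjusted p of 0.05, against 27 of 12187 genes (0.222%) over the whole table, 0.0738% of them higher and 0.148% lower in DSS. On limma voom with recovered fragments the member counts were also 0. At an unadjusted p under 0.05 there were 2 cytosolic genes (1 higher and 1 lower in DSS) and 4 mitochondrial genes (2 higher and 2 lower), against 8.99% of all genes tested, 3.57% higher and 5.42% lower. The median log2 change was 0.23 for cytosolic genes (67 positive and 15 negative) and 0.09 for mitochondrial genes (46 positive and 27 negative), beside 0.03 over all genes tested. The direction of both medians rested on DSS replicate 1. Without that library they were -0.08 and -0.13, and without DSS replicate 3 they were 0.49 and 0.28. Over all genes tested the median moved the other way, to 0.12 without DSS replicate 1 and -0.11 without DSS replicate 3. Still 0 members passed in either case. At an unadjusted limma p under 0.05 there were 37 cytosolic and 9 mitochondrial genes without DSS replicate 3. Without DSS replicate 1 there were 6 and 12. The shares of all genes tested in these 2 settings are not given here, so the counts cannot be set against a background.

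Jchain and Mzb1, which encode the joining chain of secreted antibodies and a chaperone of antibody-making cells, took the same order among the DSS libraries as the ribosomal proteins. Jchain had 164, 146 and 27.7 FPKM in DSS replicates 1, 2 and 3, against 12.5, 8.98 and 19.2 FPKM in Ctrl replicates 1, 2 and 3. Mzb1 had 102, 56.7 and 7.37 FPKM in DSS replicates 1, 2 and 3, and 3.34, 0.708 and 4.27 FPKM in Ctrl replicates 1, 2 and 3. Neither passed the limma test (adjusted p = 0.136 and 0.156). Both were picked from a list of 9 B and plasma cell genes after their values were seen. Cd79b of the same list took that order too, with 22.6, 11.2 and 8.72 FPKM in DSS replicates 1, 2 and 3. It had 9.98, 15.8 and 12.4 FPKM in Ctrl replicates 1, 2 and 3. Some other genes of the list ran differently. Xbp1, a transcription factor of antibody-secreting cells, had 32.5, 109.4 and 63.0 FPKM in DSS replicates 1, 2 and 3, against 94.2, 96.3 and 86.4 FPKM in the Ctrl libraries. Sdc1, a surface marker of plasma cells, had 0.0423, 1.11 and 1.63 FPKM in DSS replicates 1, 2 and 3, against 0.163, 0 and 1.65 FPKM in Ctrl replicates 1, 2 and 3, the reverse order among DSS libraries. The B cell markers Ms4a1 and Pax5 were too low to be tested, and each was highest in DSS replicate 3. The part of these cells in the ribosomal protein values was not tested.

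Among proteins of the small cytosolic subunit, Rps27 (chr3:90212522-90213651, minus strand, GRCm38), a zinc-finger subunit, had the largest positive log2 change. It had 6412, 2855 and 1882 FPKM in DSS replicates 1, 2 and 3, against 2104, 1943 and 1654 FPKM in Ctrl replicates 1, 2 and 3. DSS replicate 3 lay within the Ctrl range. The log2 change was 0.78 ± 0.40 (SE, limma adjusted p = 0.639). Rps2 (chr17:24718116-24721929, plus strand), a protein near the mRNA entry channel, went against its class. It had 1197, 1814 and 1439 FPKM in DSS replicates 1, 2 and 3, against 1922, 2120.1 and 1941 FPKM in the Ctrl libraries, so every DSS library was below every Ctrl library. Its log2 change of -0.45 ± 0.24 did not pass (limma adjusted p = 0.649).

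Rps6, the substrate of the S6 kinases downstream of mTORC1, was steady among the Ctrl libraries. It had 1144, 1392 and 1041 FPKM in DSS replicates 1, 2 and 3, and 1270.3, 1262 and 1276 FPKM in Ctrl replicates 1, 2 and 3. The Ctrl libraries differed by a coefficient of variation of 0.566% while the DSS libraries lay on both sides of them. Rpsa, also known as the laminin receptor, averaged 1619.7 ± 418 FPKM in DSS and 1387 ± 74.6 FPKM in Ctrl (SD, n = 3 each), and its direction turned in 2 of 18 alternatives. Rps14, whose loss of a copy underlies the anaemia of the human 5q- syndrome, had 5639, 3486 and 2199 FPKM in DSS replicates 1, 2 and 3 and 2783, 2922 and 2637 FPKM in Ctrl replicates 1, 2 and 3. Its groups overlapped.

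Of the large-subunit proteins, Rpl36 had 6178, 3397 and 2184 FPKM in DSS replicates 1, 2 and 3 and 2589, 2452 and 2305 FPKM in Ctrl replicates 1, 2 and 3 (log2 change 0.55 ± 0.36, limma adjusted p = 0.738). Its DSS libraries ran from above to below the Ctrl range. Rpl7, which belongs to the large subunit, was lower at 958, 1062 and 760.0 FPKM in DSS replicates 1, 2 and 3, against 1039, 1088 and 1067 FPKM in the Ctrl libraries, and DSS replicate 2 lay within the Ctrl range. Rpl4, which lines the tunnel through which the new peptide leaves, was chosen after its values were seen, as the contrast to the short genes. Its 694, 739 and 678 FPKM in DSS replicates 1, 2 and 3 stood against 777, 723 and 797 FPKM in the Ctrl libraries.

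The stalk of the large subunit recruits the GTPases that drive translation. It is built of Rplp0, which anchors it, and of Rplp1 and Rplp2, which carry the flexible ends. Rplp0 had 2904, 2240.1 and 1724 FPKM in DSS replicates 1, 2 and 3, against 2133, 2283 and 2321 FPKM in the Ctrl libraries. Rplp1 had 5888, 3512 and 2274 FPKM in DSS replicates 1, 2 and 3, against 2890.5, 3122 and 3067 FPKM in the Ctrl libraries. Rplp2 had 1681, 722 and 421 FPKM in DSS replicates 1, 2 and 3, against 599, 617 and 530.4 FPKM in the Ctrl libraries. All 3 overlapped between groups, and their signs turned in 5, 2 and 1 of 18 alternatives. The ratio of Rplp2 to Rplp0 was 0.579, 0.322 and 0.244 in DSS replicates 1, 2 and 3 and 0.281, 0.270 and 0.229 in Ctrl replicates 1, 2 and 3, so the stalk genes did not keep a fixed ratio among the DSS libraries.

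Transcription starts are shown for some genes that stood out in DSS replicate 1 and some that did not. The windows below run from 30 bases before to 20 bases after the start in RefSeq (build GRCm38.p6), 5′ to 3′ on the gene's strand, and capitals mark a C followed by at least 5 pyrimidines that begins within 5 bases of the start. Rps27, Rpl38 and Rplp2 are shown as short genes with high ratios in DSS replicate 1, Rpl4 and Rps2 as cytosolic genes below the Ctrl mean there, and Mrps12, Mrpl52 and Mrps30 for the mitochondrial class. Rpl38 was chosen after its values were seen.
Rps27 (chr3:90213629-90213678, minus): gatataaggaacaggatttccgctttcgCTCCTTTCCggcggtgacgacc
Rpl38 (chr11:114668550-114668599, plus): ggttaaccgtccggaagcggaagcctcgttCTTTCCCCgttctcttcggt
Rplp2 (chr7:141447621-141447670, plus): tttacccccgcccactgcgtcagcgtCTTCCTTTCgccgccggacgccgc
Rpl4 (chr9:64173357-64173406, plus): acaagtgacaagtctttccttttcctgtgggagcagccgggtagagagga
Rps2 (chr17:24720033-24720082, plus): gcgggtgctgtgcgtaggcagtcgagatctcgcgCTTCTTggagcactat
Mrps12 (chr7:28741802-28741851, minus): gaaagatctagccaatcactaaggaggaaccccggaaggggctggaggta
Mrpl52 (chr14:54426879-54426928, plus): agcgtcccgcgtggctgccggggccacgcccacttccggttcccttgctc
Mrps30 (chr13:118387233-118387282, minus): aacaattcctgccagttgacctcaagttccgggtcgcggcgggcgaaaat

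RefSeq promoters were matched for 64 cytosolic and 66 mitochondrial genes. The tract was found in 36.8% of 76 cytosolic promoters, in 5.56% of 72 mitochondrial promoters and in 10.2% of all 32851 promoters searched. The letters CCGGAAG, as bound by ETS factors, were found on either strand within the 300 bases from 250 before to 50 after the start in 35.5% of cytosolic, 31.9% of mitochondrial and 8.86% of all promoters. AAGATGGC, as bound by YY1, was found in 10.5% of cytosolic, 15.3% of mitochondrial and 2.75% of all promoters. The search depends on the annotated start, and since most of these mRNAs are known to begin with a tract, the cytosolic genes without one in the search window may include missed ones. In DSS replicate 1 the median ratio to the Ctrl mean was 1.79 for 27 genes with a tract and 1.66 for 34 genes without, and in DSS replicate 3 it was 0.767 and 0.793.

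Coding length went with the size of the shift. In DSS replicate 1 the median ratio to the Ctrl mean was 2.06 for 26 cytosolic genes with a coding length under 400 bp, 1.74 for 31 genes from 400 bp to under 600 bp and 1.30 for 23 genes of 600 bp or more. The mitochondrial genes gave 1.96 for 12 genes, 1.59 for 24 genes and 1.21 for 37 genes in these length classes. All protein-coding genes tested gave 1.67, 1.27 and 0.760. Within each length class both ribosomal classes were thus above the median of all protein-coding genes in that library. In DSS replicate 3 cytosolic genes had medians of 0.727, 0.804 and 0.786 in the 3 length classes, below the 0.890, 0.930 and 1.21 of all protein-coding genes.

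Spearman's rho was taken between coding length and the log2(FPKM + 1) deviation of a library from the mean of the Ctrl libraries. Each Ctrl library was set against the other Ctrl libraries only, so the Ctrl values depend on each other. Over the 80 cytosolic genes with a coding length rho was -0.64, -0.32 and 0.27 in DSS replicates 1, 2 and 3. In Ctrl replicates 1, 2 and 3 it was -0.56, -0.0001 and 0.57. For 73 mitochondrial genes it was -0.56, -0.05 and 0.28 in DSS replicates 1, 2 and 3, and -0.04, -0.13 and 0.23 in the Ctrl libraries. Over 10872 protein-coding genes it was -0.39, -0.04 and 0.25 in DSS replicates 1, 2 and 3, and -0.10, -0.05 and 0.14 in the Ctrl libraries. These are descriptions across genes of 1 library, which share its depth and its preparation. The libraries numbered 1 had negative and those numbered 3 positive values in all 3 gene sets of either group. The part of length in the ratios was not tested.

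**Figure D3:**
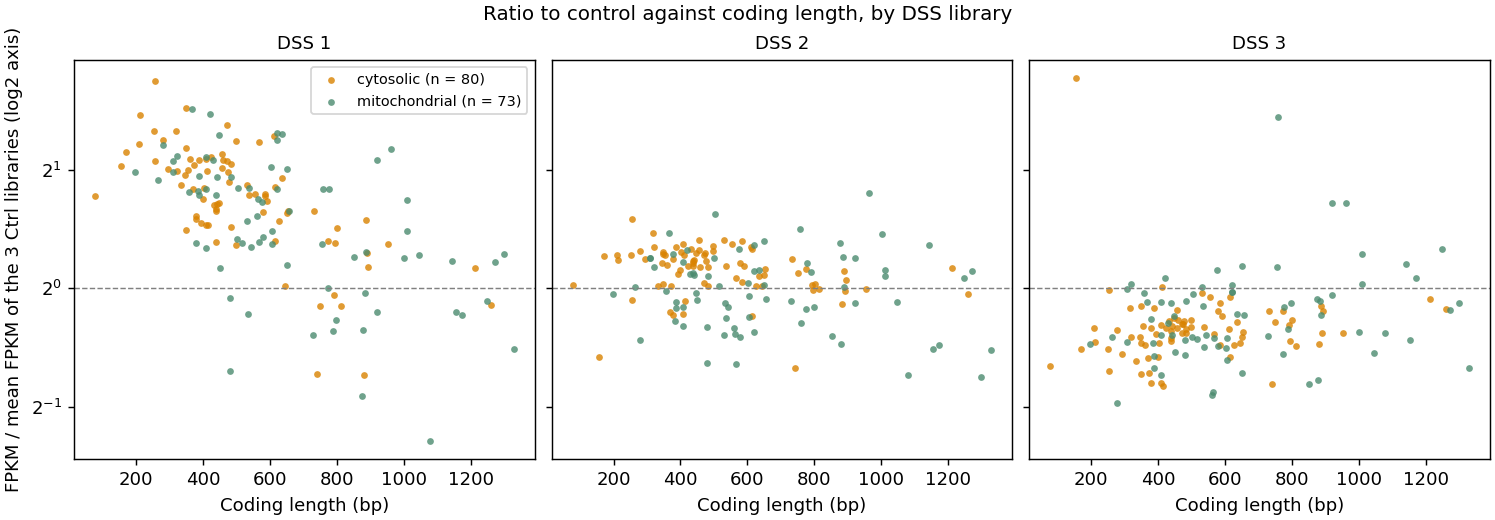
Ratio of FPKM to the Ctrl mean (log2 axis) against coding length in bp, in DSS replicates 1, 2 and 3, with 1 point per gene for 80 cytosolic and 73 mitochondrial genes. In DSS replicate 1 short genes lie highest (Spearman's rho of log2 deviation with length -0.64 for cytosolic genes). In DSS replicate 3 the slope is the other way (0.27).

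Groups that did not overlap were rarer in the cytosolic class than over all genes tested, but not clearly so in the mitochondrial class. Every DSS library was above every Ctrl library for 1 cytosolic (1.22%) and 6 mitochondrial genes (8.22%), against 6.35% of all genes tested. Every DSS library was below every Ctrl library for 2 cytosolic (2.44%) and 5 mitochondrial genes (6.85%), against 9.6% of all genes tested. The cytosolic genes were Rpl32l on the higher side and Rps2 and Rpl7l1 on the lower side. Rpl7l1 (chr17:46773907-46782672, minus strand), a relative of Rpl7 linked to assembly of the large subunit, had 18.1, 18.8 and 17.1 FPKM in DSS replicates 1, 2 and 3, against 25.7, 37.3 and 26.8 FPKM in the Ctrl libraries. It had the lowest p of the cytosolic class, with a log2 change of -0.68 ± 0.21 (SE, limma adjusted p = 0.309). Rpl32l (chr10:20208490-20208888, plus strand), annotated as a pseudogene, had 9.03, 4.44 and 3.97 FPKM in DSS replicates 1, 2 and 3, against 2.14, 2.83 and 2.15 FPKM in the Ctrl libraries (log2 change 0.95 ± 0.32, limma adjusted p = 0.356).

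In the mitochondrial class the higher genes were Mrps35, Mrpl2, Mrpl24, Mrpl38, Mrps11 and Mrpl16, and the lower ones Mrpl50, Mrps30, Mrpl19, Mrps23 and Mrpl9. Of these, Mrpl38, Mrpl16, Mrps23 and Mrpl9 were singled out after their values were seen. Mrps35 (chr6:147042764-147073991, plus strand), a small-subunit protein, had 9.40, 7.27 and 6.86 FPKM in DSS replicates 1, 2 and 3, against 4.64, 3.56 and 4.25 FPKM in the Ctrl libraries. It had the lowest p of the class, with a log2 change of 0.77 ± 0.23 (SE, limma adjusted p = 0.287). Mrpl2 (chr17:46646229-46650139, plus strand), the relative of a bacterial protein close to the peptidyl transferase centre, had 24.1, 13.6 and 18.7 FPKM in DSS replicates 1, 2 and 3, against 12.8, 8.37 and 12.9 FPKM in the Ctrl libraries (log2 change 0.67 ± 0.27, limma adjusted p = 0.472). Its DSS libraries did not follow the order of the class. Mrpl24, a large-subunit protein, had 46.8, 30.6 and 26.4 FPKM in DSS replicates 1, 2 and 3, against 21.3, 23.2 and 25.0 FPKM in the Ctrl libraries.

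Mrpl50 (chr4:49512596-49521093, minus strand), a large-subunit protein, was the clearest of the lower genes, with 7.45, 7.81 and 8.20 FPKM in DSS replicates 1, 2 and 3, against 13.5, 12.03 and 10.9 FPKM in the Ctrl libraries. Its log2 change was -0.57 ± 0.20 (SE, limma adjusted p = 0.393). Mrps30 (chr13:118378381-118387252, minus strand), which sits in the large subunit in spite of its name, had 18.2, 18.0 and 16.2 FPKM in DSS replicates 1, 2 and 3, against 22.4, 26.5 and 29.0 FPKM in the Ctrl libraries (log2 change -0.54 ± 0.20, limma adjusted p = 0.419). Mrpl19, also of the large subunit, had 6.87, 6.35 and 5.13 FPKM in DSS replicates 1, 2 and 3, against 9.96, 8.44 and 7.98 FPKM in the Ctrl libraries. Each of these lower genes kept its sign in 18 of 18 alternatives. Mrps22 and Mrpl46 had the next largest negative log2 changes, of -0.45 and -0.30 (limma adjusted p = 0.821 and 0.828), with overlapping groups.

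**Figure D4:**
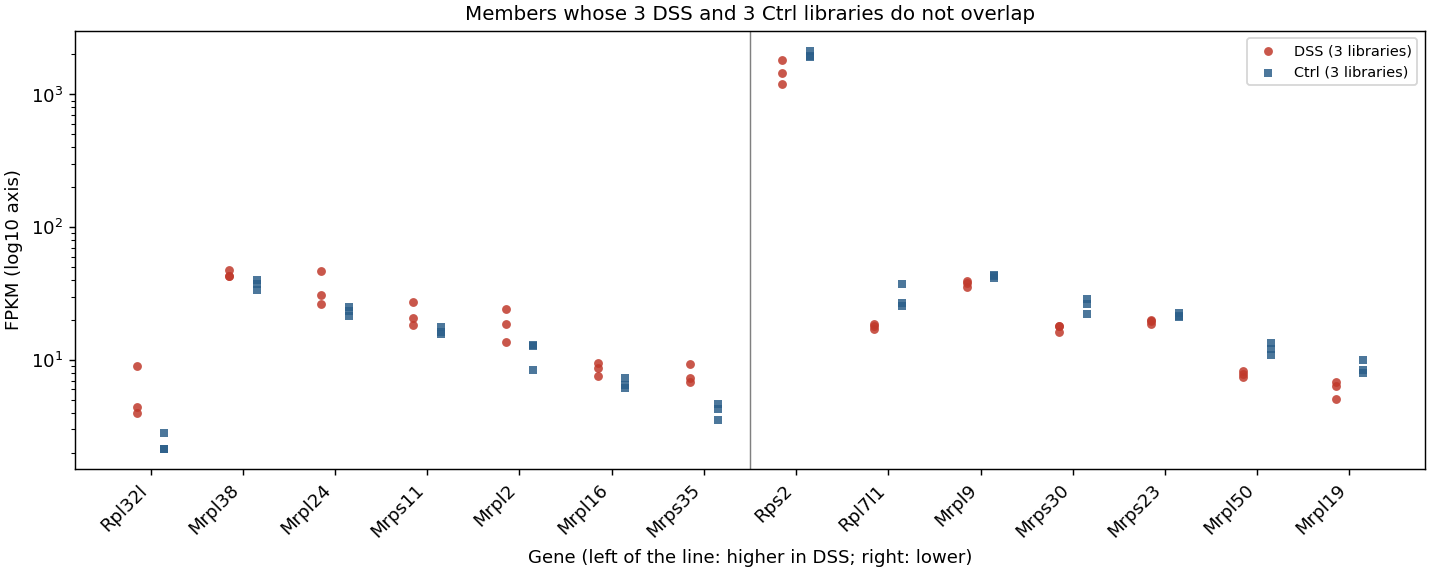
FPKM (log10 axis) of the 14 members whose 3 DSS and 3 Ctrl libraries do not overlap, with 1 point per library, DSS as red circles and Ctrl as blue squares. The 7 genes left of the line are higher in DSS and the 7 right of it lower, and none passed the limma test.

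Mrps12, the relative of the bacterial decoding-centre protein S12, and Mrpl52 had the highest ratios to the Ctrl mean of the mitochondrial class in DSS replicate 1, of 2.78 and 2.87. Mrps12 had 93.7, 42.1 and 35.7 FPKM in DSS replicates 1, 2 and 3, against 36.2, 34.4 and 30.3 FPKM in the Ctrl libraries. Mrpl52 had 146, 70.6 and 47.3 FPKM in DSS replicates 1, 2 and 3, against 53.9, 51.0 and 48.3 FPKM in the Ctrl libraries. In both, DSS replicates 1 and 2 were above the Ctrl range. Mrpl58, a peptidyl-tRNA hydrolase built into the large subunit, averaged 14.9 ± 7.48 FPKM in DSS and 9.41 ± 1.66 FPKM in Ctrl (SD, n = 3 each), and Mrps24 averaged 71.2 ± 21.2 FPKM in DSS and 49.5 ± 5.58 FPKM in Ctrl. The mitochondrial gene with the highest mean level, Mrpl23, had 197, 110.9 and 78.2 FPKM in DSS replicates 1, 2 and 3, against 115, 97.5 and 95.9 FPKM in the Ctrl libraries. Mrpl54, Mrps21 and Mrps15 came next in level, with overlapping groups, and the signs of Mrpl23, Mrpl54 and Mrps21 turned in 2, 1 and 2 of 18 alternatives.

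The shared shift was removed by taking from each gene's log2(FPKM + 1) deviation from its Ctrl mean the median deviation of its class in the same library. On that scale every DSS library was above every Ctrl library for 10 cytosolic genes and below for 13, and the same subtraction gave 2.03% above and 7.02% below over all genes tested. For mitochondrial genes the counts were 10 and 9, against 3.82% and 8.36% over all genes tested with the mitochondrial median taken off. When all genes tested were centred on their own median, as each class was on its own, the shares were 5.69% and 10.4%. Each class sets its own centre here, so the counts are a description. Rps27, Rpl36, Rps13 and Rpl22 were among the higher cytosolic genes, and Rpl7l1, Rps2, Rpl7 and Rpl31 among the lower. Rpl31 had 699.9, 398 and 268 FPKM in DSS replicates 1, 2 and 3, against 483, 486 and 429.65 FPKM in the Ctrl libraries, and its groups overlap before the subtraction. The sign of its log2 change before it turned in 2 of 18 alternatives.

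Several ribosomal proteins have a related gene, and ratios within such pairs do not depend on library scaling. The 8 ratios were compared with exact two-sided permutation tests, for which 3 against 3 libraries allow no p below 0.1, adjusted over the 8. Rpl22, which is needed for the development of some T cells, has the relative Rpl22l1, whose level it is known to repress. Rpl22l1 to Rpl22 was 3.64, 2.96 and 3.22 in DSS replicates 1, 2 and 3, against 4.59, 4.62 and 3.78 in Ctrl replicates 1, 2 and 3, so every DSS ratio was below every Ctrl ratio (exact permutation p = 0.1, adjusted p = 0.2). Rpl22 itself had 222, 133 and 93.3 FPKM in DSS replicates 1, 2 and 3, against 104, 99.4 and 109 FPKM in the Ctrl libraries. Rpl22l1 had 809, 393 and 300.2 FPKM in DSS replicates 1, 2 and 3, against 480.0, 459 and 413 FPKM in the Ctrl libraries.

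Rps27l, known as a target of p53, stood to Rps27 at 0.0422, 0.0418 and 0.0420 in DSS replicates 1, 2 and 3, against 0.0686, 0.0566 and 0.0787 in the Ctrl libraries (exact permutation p = 0.1, adjusted p = 0.2). The DSS ratios were nearly equal although the level of Rps27l itself spanned 271, 119 and 79.0 FPKM in DSS replicates 1, 2 and 3, against 144, 109.9 and 130.2 FPKM in the Ctrl libraries. Rpl7l1 to Rpl7 averaged 0.0197 ± 0.0025 in DSS and 0.0280 ± 0.0054 in Ctrl, and Rpl32l to Rpl32 averaged 0.00292 ± 0.00053 in DSS and 0.00165 ± 0.00025 in Ctrl (SD, n = 3 each, exact permutation p = 0.1 and adjusted p = 0.2 for both). Neither ratio overlapped between groups. The ratio of Rps4l, annotated as a pseudogene, to Rps4x was 0.133, 0.0852 and 0.0501 in DSS replicates 1, 2 and 3 and 0.0711, 0.0671 and 0.0551 in the Ctrl libraries, with overlap (exact permutation p = 0.5).

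**Figure D5:**
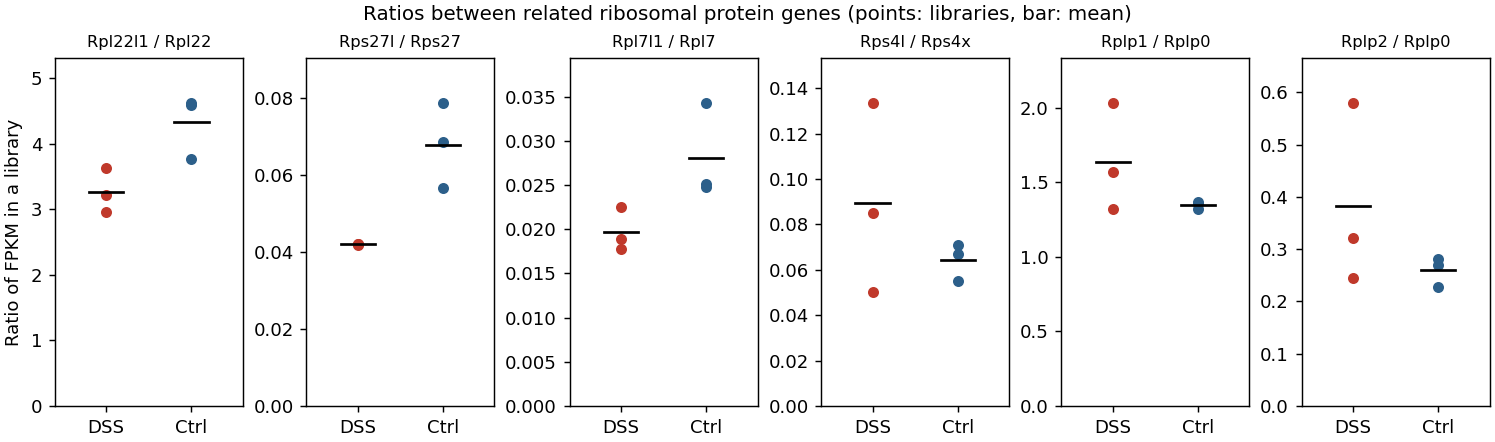
Ratio of FPKM between related ribosomal protein genes in each library (vertical axes from 0, no unit), DSS left and Ctrl right in each panel, with points for libraries and bars for means. Rpl22l1 to Rpl22, Rps27l to Rps27 and Rpl7l1 to Rpl7 lie lower in every DSS library than in every Ctrl library, while Rps4l to Rps4x and the stalk ratios overlap.

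Of the 160 members, 5 had a mean below 1 FPKM and were not tested. Rpl39 was at 0.545, 0.340 and 0.647 FPKM in DSS replicates 1, 2 and 3 and 0.629, 1.11 and 0.637 FPKM in the Ctrl libraries. Rpl3l and Rpl10l, relatives of Rpl3 and Rpl10 known from muscle and testis, were above 1 FPKM only in libraries numbered 3, with 3.46 FPKM of Rpl3l in DSS replicate 3 and, for Rpl10l, 1.84 FPKM in DSS replicate 3 and 2.36 FPKM in Ctrl replicate 3. Rpl39l, which passed the filter, had 1.99, 0.647 and 3.32 FPKM in DSS replicates 1, 2 and 3, against 0, 0 and 2.91 FPKM in Ctrl replicates 1, 2 and 3. Mrps17 and Mrpl36 had means of 0.875 and 0.168 FPKM in DSS, against 1.02 and 0.0821 FPKM in Ctrl.

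Near-identical copies limit how far a cytosolic gene can be told from its pseudogenes. Of 83 cytosolic genes with a coding sequence, 77 had at least 1 other transcript of at least 95% identity over at least 90% of it, with a median of 5 and up to 56 (Rpl21), and Rps2 had 22. Mitochondrial genes had few, with 14 of 75 having a copy and at most 4. How the authors counted fragments that fit several copies is not given in the sources used here, so the level of a cytosolic gene such as Rpl39, with 9 copies, is uncertain. Rpl32l is itself a near-identical copy of Rpl32. It had 11 to 54 fragments per library, against 10603 to 41658 for Rpl32. Whether its fragments came from Rpl32 was not tested, and its level and its ratio to Rpl32 carry this limit. Rps27rt, a near-identical copy of Rps27 chosen for this reason, had 1117, 435 and 305 FPKM in DSS replicates 1, 2 and 3, against 320.3, 328 and 273 FPKM in the Ctrl libraries, and its ratio to Rps27 was 0.163 ± 0.011 in DSS and 0.162 ± 0.0086 in Ctrl (SD, n = 3 each).

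Other genes of the translation machinery were read from lists chosen by function, and 0 genes of these lists passed the limma test. A list of 21 genes known to have TOP mRNAs held translation factors and also Fau and Hnrnpa1. Of the 21, 12 had a positive and 9 a negative log2 change, with a median of 0.11. Their median ratio to the Ctrl mean was 1.25, 1.06 and 0.875 in DSS replicates 1, 2 and 3, the library order of the ribosomal proteins. Fau, which encodes a ubiquitin-like protein fused to ribosomal protein S30, had 1305, 1006 and 685 FPKM in DSS replicates 1, 2 and 3, against 741, 702 and 688 FPKM in the Ctrl libraries, the order of the cytosolic members. Eif3f and Eif3l, both subunits of initiation factor 3, went apart, with 156 ± 13.5 and 49.2 ± 3.47 FPKM in DSS and 117 ± 1.67 and 67.3 ± 2.70 FPKM in Ctrl (SD, n = 3 each, limma adjusted p = 0.559 and 0.486).

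Of 31 cytosolic initiation factors, 8 had a positive and 23 a negative log2 change, with a median of -0.22, and 10 were lower in every DSS library than in every Ctrl library, against 9.6% of all genes tested. Their median ratio to the Ctrl mean was 0.843, 0.854 and 0.861 in DSS replicates 1, 2 and 3, so they did not share the library order of the ribosomal proteins. Eif4g2, a relative of the scaffold protein eIF4G, averaged 50.5 ± 9.40 FPKM in DSS and 70.9 ± 3.73 FPKM in Ctrl (SD, n = 3 each, limma adjusted p = 0.497).

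Of 50 ribosome biogenesis genes, 14 had a positive and 36 a negative log2 change, with a median of -0.23, and 16 were lower in every DSS library while 3 were higher, against 9.6% and 6.35% of all genes tested. Ltv1, a maturation factor of the small subunit, had 22.04, 19.4 and 16.9 FPKM in DSS replicates 1, 2 and 3, against 41.9, 34.3 and 36.2 FPKM in the Ctrl libraries (log2 change -0.91 ± 0.20, limma adjusted p = 0.136). Nolc1, a nucleolar chaperone of small nucleolar ribonucleoproteins, averaged 18.7 ± 1.84 FPKM in DSS and 32.3 ± 2.67 FPKM in Ctrl (limma adjusted p = 0.193). Rrs1, which helps to bring the 5S ribonucleoprotein into the large subunit, averaged 6.99 ± 3.04 FPKM in DSS and 15.9 ± 2.85 FPKM in Ctrl (limma adjusted p = 0.225). For Ltv1, Nolc1 and Rrs1 the groups did not overlap.

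Of 24 genes that act on mTORC1 or TOP mRNAs, 8 had a positive and 16 a negative log2 change, with a median of -0.11. Eif4ebp1, the mTORC1 substrate that holds back eIF4E, had 17.3, 15.3 and 13.7 FPKM in DSS replicates 1, 2 and 3, against 8.55, 8.50 and 9.14 FPKM in the Ctrl libraries (log2 change 0.75 ± 0.20, limma adjusted p = 0.213). Larp1 averaged 24.4 ± 5.59 FPKM in DSS and 38.4 ± 2.57 FPKM in Ctrl, and Mycn, a transcription factor that drives ribosome production, averaged 13.4 ± 4.19 FPKM in DSS and 23.0 ± 2.77 FPKM in Ctrl (SD, n = 3 each, limma adjusted p = 0.359 and 0.344). Larp1 and Mycn were lower in every DSS library than in every Ctrl library.

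Of 8 mitochondrial ribosomal subunits whose symbols fall outside the rule, 2 had a positive and 6 a negative log2 change. Every DSS library was above every Ctrl library for 1 and below for 1, against 6.35% and 9.6% of all genes tested. Dap3, a GTP-binding protein of the small subunit, was the higher one. It had 17.2, 12.2 and 13.3 FPKM in DSS replicates 1, 2 and 3, against 8.19, 9.11 and 10.04 FPKM in the Ctrl libraries (limma adjusted p = 0.427). Mrps18b was the lower one. It had 6.24, 5.70 and 7.62 FPKM in DSS replicates 1, 2 and 3, against 10.8, 8.57 and 10.6 FPKM in the Ctrl libraries (limma adjusted p = 0.472). Of 35 genes of mitochondrial translation and ribosome assembly, 19 had a positive and 16 a negative log2 change, with a median of 0.06. Rbfa, an assembly factor of the small mitochondrial subunit, averaged 56.9 ± 7.76 FPKM in DSS and 79.3 ± 2.26 FPKM in Ctrl (SD, n = 3 each, limma adjusted p = 0.475), and its groups did not overlap.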

How the data were processed

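Per the labels' protocols, TRIzol RNA was turned into full-length cDNA by SMART-Seq HT and into paired-end libraries by Nextera XT. Per the submitters' processing notes, cutadapt 1.9, HISAT2 2.2.1 and the build mm10 were used. No counter, annotation or set of gene lengths is named in the sources used here. The deposited values are FPKM for 23268 genes in 1 table, and samples were grouped by title.

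Within a gene the deposited FPKM were whole multiples of a common step, and fragments were recovered for 22701 of 22701 genes above 0 (tolerance 0.001). This gives depth but no independent check for genes above 0 in only a few libraries, where some whole number is easily found. Of genes above 0 in all 6 libraries, 13957 of 13957 were recovered. The deposited FPKM were put on a log2(FPKM + 1) scale, and the 12187 genes averaging at least 1 FPKM were tested, two-sided, with limma 3.58.1 in R 4.3.3 with a mean-variance trend. Benjamini-Hochberg adjustment ran over all of them, with a threshold of 0.05. All fold changes are on that scale, which understates low genes. Limma voom, run on these fragments, was an alternative added after the data were seen, as was leaving out both libraries numbered 3. Scripts were tested on simulated data. Counts of ratios above the Ctrl mean use members that passed the filter.

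The members and lists were chosen with earlier results of these data known. Named for each class were the 10 smallest p, the 5 largest changes in each direction, the 5 highest means and untested members, and for the cytosolic class also its paralogs, stalk genes, Rpsa and Rps6. Of each other list the 4 smallest p could be named, and some of these are left out. Some named members are not reported here. Coordinates and coding lengths come from GENCODE M21 (GRCm38, 1-based), promoters from RefSeq (GRCm38.p6), copies from blastn 2.17.0. Tables and figures used Python 3.11.15, pandas 2.3.3 and matplotlib 3.10.9.

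Same-numbered libraries deviated together from their group means (r = 0.189, 0.262 and 0.545 over genes). By a rule that each exceed 0.1, a fit with same-numbered libraries as pairs (the replicate block) was run as an alternative. The main limma fit and the permutation tests used no pairing. The labels themselves state no such pairing, and DSS replicate 2 with Ctrl replicate 1 (0.345) and DSS replicate 1 with Ctrl replicate 2 (0.101) met the rule too, so it does not show which libraries belong together. Alternatives were other pseudocounts, filters and scalings, no trend, the replicate block and leaving out each library.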

Additional observations from a re-analysis of the deposited data

How the results depend on the processing

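In each of 18 alternatives 0 cytosolic and 0 mitochondrial genes passed. The count over the whole table, 27, was 14 with an equal total of FPKM, 9 with median-of-ratios scaling, 7 with an equal summed cytosolic ribosomal FPKM, 4 without the trend and 5 without both libraries numbered 3, and 4 to 413 when 1 library was left out (413 without DSS replicate 1, 7 without DSS replicate 2, and 4, 5 and 6 without Ctrl replicates 1, 2 and 3). The cause was not tested. With the replicate block, to which the same-numbered pairing applies, 22 genes passed, and it changed no call of a member (lowest adjusted p = 0.254 cytosolic and 0.243 mitochondrial). The cytosolic median log2 change was 0.23 and lay between -0.08 (without DSS replicate 1) and 0.49 (without DSS replicate 3). The mitochondrial median was 0.09 and lay between -0.14 (equal cytosolic sum) and 0.28 (without DSS replicate 3). The median of all genes tested was 0.12 without DSS replicate 1 and -0.11 without DSS replicate 3. The equal cytosolic sum sets the cytosolic median near 0 by construction and moved the median of all genes to -0.13, so mitochondrial genes then stood level with all genes. The DSS minus Ctrl difference in the cytosolic share was 2.35 percentage points, -0.12 without DSS replicate 1 and 4.67 without DSS replicate 3, and in the mitochondrial share 0.0242, -0.0248 and 0.0623. Of 43 named members, 29 kept their sign in every alternative and 14 did not. Rpl39 rests on 4 to 12 fragments per library, and with 3 libraries a group the spread among DSS libraries limits what the test can call.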
